A study of Mus musculus with 18 samples.

Results

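The core circadian clock genes are the 10 genes Arntl, Clock, Npas2, Per1, Per2, Per3, Cry1, Cry2, Nr1d1 and Nr1d2. They were chosen by gene name, and each name matched 1 of the 32675 genes of the deposited table. All 10 passed the filter on low counts, which kept 20251 genes. In the molecular clock of mammals, the transcription factor ARNTL pairs with CLOCK, or with its relative NPAS2, and switches on the genes of its own repressors. The PER and CRY proteins then block the pair, and the nuclear receptors NR1D1 and NR1D2 shut down transcription of Arntl, so that Arntl and Nr1d1 RNA are known to peak at opposite times of day. In the kidney this clock runs in the tubule cells and is known for the daily rhythm of salt and water excretion.

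The levels were measured in right kidneys of 18 male wild type C57BL/6 mice, 6 weeks old in the labels, with 1 RNA library per mouse and 6 mice in each of 3 groups. Mice labelled StressPbs (the PBS group) and StressFlx (the FLX group) went through chronic social defeat stress (CSDS), in which an aggressive CD-1 male was met for 10 min a day over 2 weeks. During CSDS the FLX group received a daily intraperitoneal injection of 10 mg per kg of fluoxetine, a selective serotonin reuptake inhibitor, and the PBS group one of an equal amount of phosphate-buffered saline. The Ctrl group was handled daily, with no defeat and no injection described, and all groups took a sucrose preference test and a forced swim test. Defeat and injection therefore cannot be told apart in PBS versus Ctrl, and no undefeated group received fluoxetine. The mice were kept in a light-dark cycle, and the hour at which each kidney was removed was not given in the sources used here. A difference in clock gene RNA at a fixed hour and a difference in the hour of collection cannot be told apart in these data. The study deleted 1 PBS mouse with excessive inflammatory gene expression without naming it. It was taken here to be PBS replicate 6, which had 22.1 FPKM (fragments per kilobase of transcript, scaled to the depth of the library) of S100a8 against at most 7.65 in the other PBS mice, and 32.8 FPKM of S100a9 against at most 13. Values are given over the other 5 PBS mice first, and PBS replicate 6 is named where it changed a result.

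Total counts per mouse lay between 72149987 and 79061296 in 14 mice and between 48928823 and 52073640 in FLX replicates 3 to 6. The kidney label held, with a summed level of 8 kidney cell markers of 1820 to 2420 FPKM over the 18 mice. None of these 8 was called in any comparison by edgeR or DESeq2, and at an unadjusted p under 0.05 there was 1, in PBS versus Ctrl. Of all genes, edgeR called 0.306% to 2.14% in a direction over the 3 comparisons. At an unadjusted p under 0.05 in PBS versus Ctrl, 9.18% were higher and 8.76% lower. For 8 genes the counts are near these shares, so they do not show an equal make-up of cells. Single markers varied more than their sum. Aqp2 ran from 58.3 FPKM in Ctrl replicate 3 to 357 in Ctrl replicate 4 and 360 in PBS replicate 6. PBS replicate 6 also had the lowest Slc34a1, at 362 FPKM against at least 678 in the other mice. In bulk tissue, fewer cells of a type and less RNA per cell cannot be told apart. The median log2 fold change of all genes tested was within 0.01 of 0 in each comparison in edgeR. Its scaling sets the bulk of genes near 0, so that value is no check of the data. On log2(FPKM + 0.1) the median was -0.01 in PBS versus Ctrl, 0.08 in FLX versus PBS and 0.06 in FLX versus Ctrl. FPKM levels of the FLX group carry this small shift.

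FPKM is a level per transcript length, so the members can be ranked within a mouse. In the Ctrl group, Nr1d1 (median 13.8 FPKM) and Nr1d2 (11.1) stood at the top, above Per1 at 3.04 in 6 of 6 mice. Clock, Cry2, Per2 and Per3 followed with medians of 2.13, 1.88, 1.68 and 1.62, and their ranges overlapped. Below them by median came Arntl, Npas2 and Cry1 with 0.881, 0.851 and 0.778 and overlapping ranges. Per3, at 1.19 or more, lay just above Arntl, at 1.18 or less, but overlapped Npas2 (up to 1.46) and Cry1 (up to 1.26). In the PBS group Per1 came first with a median of 13.2 FPKM, overlapping Nr1d2 at 11.2 and Nr1d1 at 10.2. The next 5 genes ran from Per2 at 2.47 to Per3 at 1.42 FPKM, and Arntl, also at 1.42, and Npas2, at 0.848, closed the order. In the FLX group the members lay closer together. Nr1d2 (median 5.61 FPKM) overlapped Per1 (5.07), and Arntl (3.38), Cry1 (3.34), Nr1d1 (3.13), Clock (3) and Npas2 (2.57) overlapped their neighbours. Of neighbours in this order, the ranges of Cry2 (1.47) and Per3 (0.719) alone did not overlap.

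**Figure D1:**
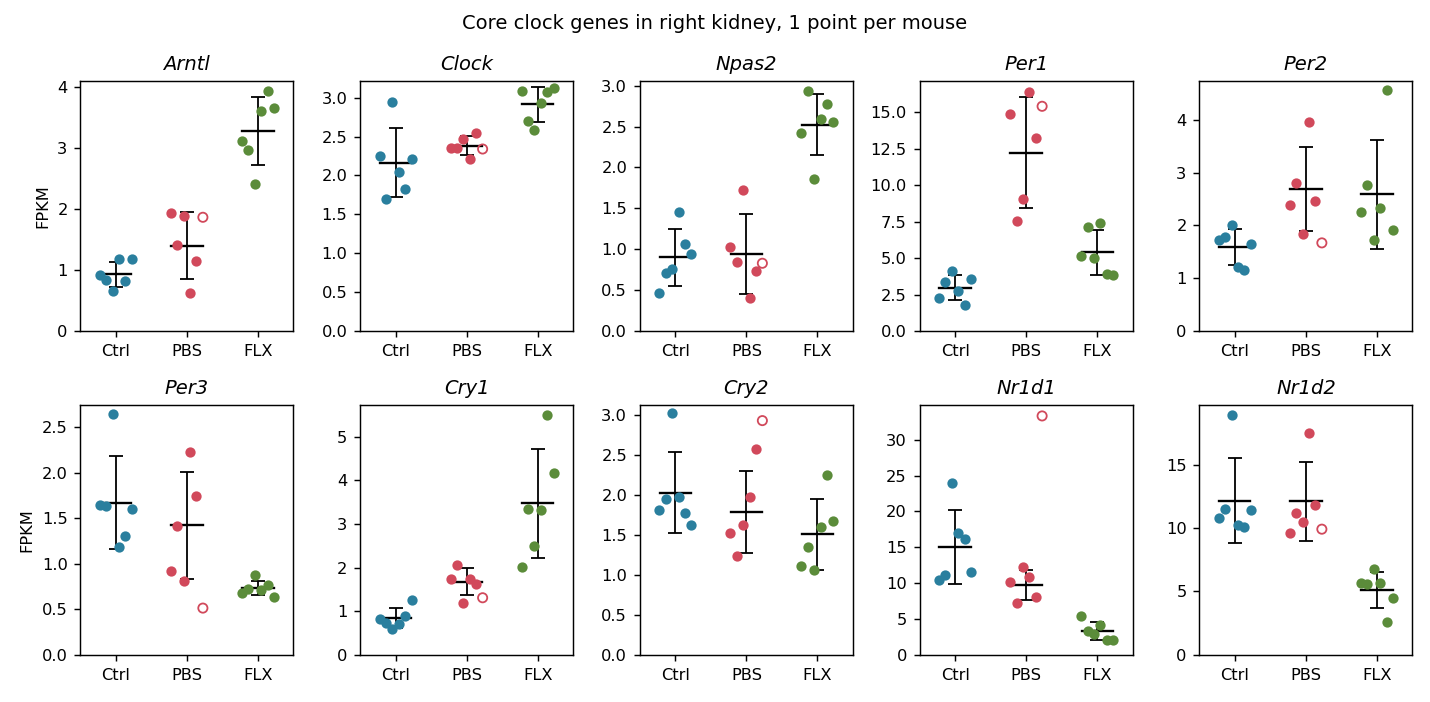
FPKM of the 10 core clock genes (y axes, from 0) in the Ctrl, PBS and FLX groups (x axes), with 1 point per mouse, the mean as a line and bars of 1 SD. The open circle is PBS replicate 6, which is not in the mean. Per1 is highest in the PBS group, Arntl, Npas2 and Cry1 are highest in the FLX group, and Nr1d1, Nr1d2 and Per3 are lowest in the FLX group.

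Of the 10 members, 2 were called higher in PBS than Ctrl and 0 lower at an adjusted p under 0.05 in edgeR's quasi-likelihood test, where 2.14% of all genes tested were called higher and 1.67% lower. At an unadjusted p under 0.05, 4 members were higher and 1 lower, beside 9.18% and 8.76% of all genes. DESeq2 called 3 higher and 0 lower, beside 4.40% and 3.70%. In FLX versus PBS, 2 were called higher and 4 lower, beside 0.306% and 0.420% of all genes. In FLX versus Ctrl, 4 were called higher and 3 lower, beside 2.08% and 1.59% of all genes. With 1 mouse left out, FLX versus PBS gave 3 to 7 calls, with 3 without FLX replicate 5, FLX replicate 6 or PBS replicate 4, and PBS versus Ctrl gave 1 without Ctrl replicate 2 or PBS replicate 1. The shares over all genes moved more, and were highest without Ctrl replicate 3, at 4.56% higher and 3.71% lower in PBS versus Ctrl, 0.518% and 0.727% in FLX versus PBS and 7.75% and 7.67% in FLX versus Ctrl. The lowest were 1.04% and 0.831% in PBS versus Ctrl without PBS replicate 1, 0.106% and 0.121% in FLX versus PBS without PBS replicate 4, and 0.795% higher without Ctrl replicate 5 and 0.522% lower without FLX replicate 5 in FLX versus Ctrl. The groups did not overlap in FPKM for 1 member in PBS versus Ctrl (3.52% of all genes), for 6 in FLX versus PBS (2.92%) and for 6 in FLX versus Ctrl (3.40%). The median log2 fold change of the members was 0.11, -0.25 and 0.48 in the 3 comparisons. These comparisons share their mice in pairs, so that a high PBS value enters 2 of them. The PBS median lay between those of Ctrl and FLX for 6 members and outside them for 4 (Npas2, Per1, Per2 and Nr1d2). For Npas2 (0.848 FPKM in PBS against 0.851 in Ctrl) and Nr1d2 (11.2 against 11.1) it was nearly that of Ctrl. The share of all genes with such medians was not counted, so this is a description only.

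**Figure D2:**
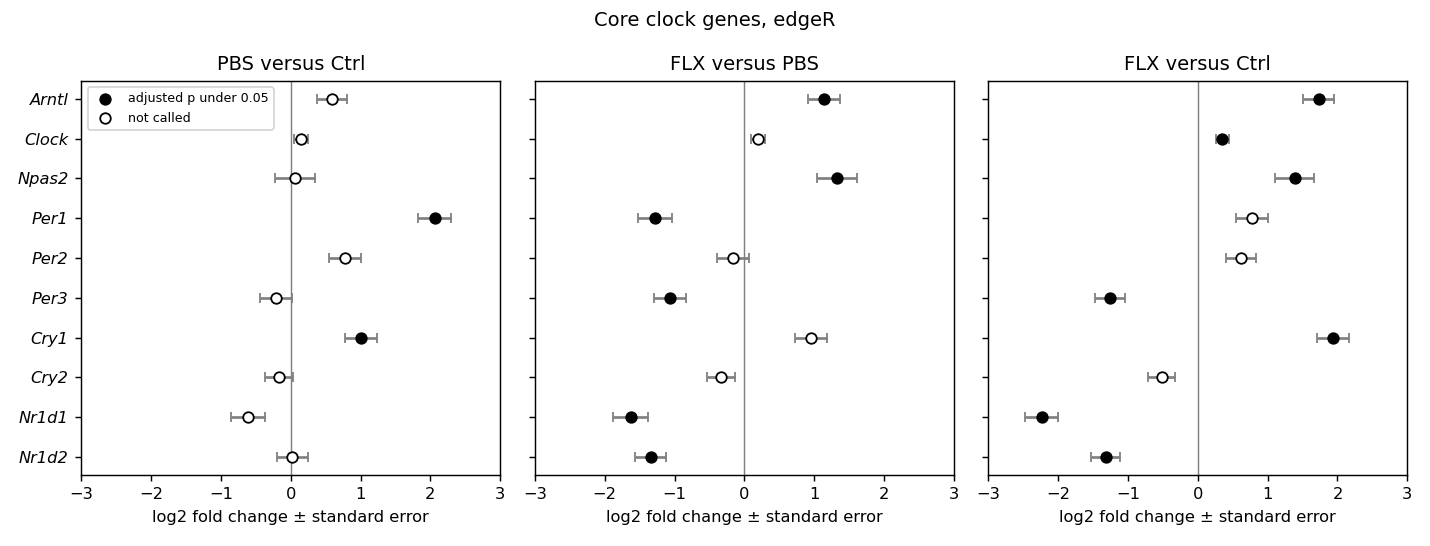
Log2 fold changes (x axes) with bars of 1 standard error for the 10 members (rows) in PBS versus Ctrl, FLX versus PBS and FLX versus Ctrl, from edgeR over 17 mice. Filled points have an adjusted p under 0.05. Per1 is at 2.06 in PBS versus Ctrl and -1.28 in FLX versus PBS, and Nr1d1 is at -1.63 in FLX versus PBS and -2.24 in FLX versus Ctrl.

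The letters at the start sites of 4 members called in a comparison are shown, each with a motif of the clock's own factors. They do not stand for all members that moved. Nr1d1 and Npas2 were also called, and their windows held none of the motifs searched. RefSeq promoter windows on GRCm38.p6, from 250 bases before to 50 after a start site, were held for 9 of the 10 members, in 13 windows, and Per2 had no entry. They were searched on both strands for the E-box CACGTG, which ARNTL and its partner bind, for AGGTCA, the half-site of NR1D receptors, and for the D-box TTATGNAA, bound by DBP, TEF, HLF and NFIL3. The E-box was found in 2 of the 13 windows (Per1 and Cry1), the half-site in 4 (Arntl, Clock, Per1 and Nr1d2) and the D-box in 2 (Per1 and Per3). Among all 32851 windows, 7.15%, 16.3% and 3.38% held them. Capitals mark the motifs, which do not overlap one another. The run of Per1 (chr11:69098699-69098947, plus strand) holds an E-box at position -166 from the start site, a half-site read on the opposite strand at -137 and a D-box at -24. It lies within a longer annotated Per1 transcript, in an intron. The run of Cry1 (chr10:85185065-85185304, minus strand) holds an E-box at -60. The run of Per3 (chr4:151044666-151044915, minus strand) holds the D-box letters TTATGTAA at -205 and at -158. For Arntl, 30 bases after the start site are shown (chr7:113207530-113207559, plus strand), with the half-site at position 32, in the annotated 5′ UTR. A match of letters is a description of the sequence and not a binding site measured here.
Per1: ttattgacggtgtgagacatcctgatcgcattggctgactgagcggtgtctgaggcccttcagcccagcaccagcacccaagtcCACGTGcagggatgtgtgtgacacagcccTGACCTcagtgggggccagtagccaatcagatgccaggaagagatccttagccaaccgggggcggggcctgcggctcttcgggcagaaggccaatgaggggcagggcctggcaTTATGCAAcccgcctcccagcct
Cry1: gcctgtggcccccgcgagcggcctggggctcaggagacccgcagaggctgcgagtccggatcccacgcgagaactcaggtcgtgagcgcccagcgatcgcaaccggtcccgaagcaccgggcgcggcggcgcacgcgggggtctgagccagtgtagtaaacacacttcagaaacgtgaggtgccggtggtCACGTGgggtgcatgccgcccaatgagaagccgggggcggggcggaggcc
Per3: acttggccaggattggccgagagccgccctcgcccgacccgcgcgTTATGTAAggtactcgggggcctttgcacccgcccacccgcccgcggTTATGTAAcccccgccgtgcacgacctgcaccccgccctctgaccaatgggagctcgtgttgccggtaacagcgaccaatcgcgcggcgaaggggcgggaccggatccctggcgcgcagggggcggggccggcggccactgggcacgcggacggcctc
Arntl: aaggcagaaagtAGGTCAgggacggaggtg

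Among the activators, Arntl (ENSMUSG00000055116, GRCm38 chromosome 7, 113207465 to 113314126), whose protein BMAL1 is the partner that the clock cannot do without, had 0.652 FPKM in the lowest, a median of 0.881 and 1.18 in the highest Ctrl mouse. The 5 PBS mice had 1.94, 1.42, 1.89, 0.62 and 1.15 FPKM. The FLX mice had 2.42 FPKM in the lowest, a median of 3.38 and 3.94 in the highest. Every FLX mouse lay above every other mouse, while the PBS mice spread from below the lowest Ctrl mouse to above the highest. Mean levels were 0.932 ± 0.21 in Ctrl (SD, n = 6), 1.41 ± 0.548 in PBS (SD, n = 5) and 3.29 ± 0.557 FPKM in FLX (SD, n = 6). Arntl rose in FLX versus Ctrl (log2 fold change 1.73, standard error or SE 0.22, adjusted p = 0.000458) and in FLX versus PBS (1.14, SE 0.23, adjusted p = 0.0244). The difference between PBS and Ctrl was 0.59 (SE 0.22, adjusted p = 0.159), and 0.77 (0.0325) without PBS replicate 4, the PBS mouse at 0.62 FPKM. The call in FLX versus PBS was lost without FLX replicate 1, 5 or 6 (adjusted p = 0.0503, 0.0522 and 0.0598).

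Npas2 (ENSMUSG00000026077, chromosome 1, 39193731 to 39363236), which stands in for CLOCK in several tissues, was also highest in FLX, while its PBS median lay at that of Ctrl. It ranged from 0.464 through a median of 0.851 to 1.46 FPKM in Ctrl and from 1.86 through 2.57 to 2.93 in FLX. In PBS, the 5 mice had 1.03, 0.848, 1.72, 0.409 and 0.731 FPKM. All 6 FLX mice lay above all Ctrl and PBS mice, and PBS replicate 4 was again the lowest of the PBS mice. Npas2 rose from 0.902 ± 0.345 FPKM in Ctrl (SD, n = 6) to 2.53 ± 0.37 in FLX (SD, n = 6), by 1.39 on the log2 scale (SE 0.28, adjusted p = 0.0126). From PBS, at 0.947 ± 0.486 FPKM (SD, n = 5), the rise was 1.33 (SE 0.29, adjusted p = 0.0402), and PBS versus Ctrl gave 0.06 (SE 0.29, adjusted p = 0.941). This call in FLX versus PBS was the frailer of the pair. It was lost without Ctrl replicate 2, 5 or 6 (0.0502 to 0.0532), any 1 FLX mouse (0.0554 to 0.0841), or PBS replicate 1, 2, 4 or 5 (0.0747 to 0.104). With all 6 PBS mice it was 1.37 (adjusted p = 0.0275).

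Clock (ENSMUSG00000029238, chromosome 5, 76209868 to 76304792), the usual partner of ARNTL, is known for a flat daily profile and had the smallest fold of the 3 activators in both comparisons with FLX. Ctrl mice ranged from 1.7 through a median of 2.13 to 2.95 FPKM, FLX mice from 2.58 through 3 to 3.12, and the 5 PBS mice were at 2.35, 2.35, 2.47, 2.21 and 2.54. Every FLX mouse was above every PBS mouse, but the fold was small, 0.20 on the log2 scale (SE 0.10, adjusted p = 0.457). In FLX versus Ctrl Clock rose by 0.35 (SE 0.09, adjusted p = 0.041). That call was lost with all 6 PBS mice (0.0537) and in 11 of the 17 fits that left out 1 mouse, those without Ctrl replicate 1, 2, 4, 5 or 6 (0.0659 to 0.0984), FLX replicate 1, 2, 5 or 6 (0.0526 to 0.0744) or PBS replicate 1 or 3 (0.0522 and 0.0502). Between PBS and Ctrl it was 0.15 (SE 0.10, adjusted p = 0.442). The processed pseudogene Ube2n-ps1 lies within Clock on the same strand, at 1.29 to 4.88 FPKM, so reads near it are uncertain.

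Among the repressors, Per1 (ENSMUSG00000020893, chromosome 11, 69095217 to 69109960) is the one known to be switched on within the hour by glucocorticoids and by light. Ctrl mice had 1.82 FPKM in the lowest, a median of 3.04 and 4.12 in the highest. The 5 PBS mice had 14.9, 7.56, 9.06, 16.4 and 13.2 FPKM, and the FLX mice ranged from 3.83 through 5.07 to 7.38. The PBS mice, with PBS replicate 6 at 15.4, were above all Ctrl and all FLX mice. Per1 rose from 2.98 ± 0.862 FPKM in Ctrl (SD, n = 6) to 12.2 ± 3.79 in PBS (SD, n = 5), by 2.06 on the log2 scale (SE 0.24, adjusted p = 0.000134). The exact two-sided permutation test of log2(FPKM + 0.1) gave p = 0.00433, the smallest that 5 against 6 mice allow. In FLX it was at 5.4 ± 1.54 FPKM (SD, n = 6), a fall by 1.28 on the log2 scale against PBS (SE 0.24, adjusted p = 0.0171). Against Ctrl the FLX value was 0.78 (SE 0.23, adjusted p = 0.063), with 4 of 6 FLX mice above every Ctrl mouse. The call in FLX versus PBS was lost without PBS replicate 4 (adjusted p = 0.0582), and FLX versus Ctrl was called without Ctrl replicate 3 (0.88, adjusted p = 0.0192) and without PBS replicate 2 (0.0499). FLX versus Ctrl was also called by DESeq2 (0.0102), by limma with pseudocounts of 0.1 and 0.01 (0.0387 and 0.0381), and with only the 2 groups compared (0.0482).

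Further gene lists, 1 of them of genes known to respond to glucocorticoids, were read beside Per1. No hormone level was given in the sources used here. The gene lists used here were chosen with earlier results of these data known, so counts over them are a description and not independent support. Of 8 genes listed as induced by glucocorticoids (Fkbp5, Tsc22d3, Sgk1, Zbtb16, Klf9, Errfi1, Mt1 and Mt2), 8 were called higher in PBS versus Ctrl, beside 2.14% of all genes. In FLX versus PBS 2 were called lower (Mt1 and Mt2), beside 0.420% of all genes. The rest were not called and ran from -0.85 (Zbtb16) to -0.06 (Tsc22d3) on the log2 scale. In FLX versus Ctrl 3 were called higher (Sgk1, Tsc22d3 and Zbtb16), beside 2.08%. The summed level of the 8 ranged from 195 to 270 FPKM in Ctrl, from 310 to 1290 over the 6 PBS mice and from 253 to 338 in FLX. The 1290 FPKM was that of PBS replicate 6, which had 386 FPKM of Mt1 and 620 of Mt2. The other PBS mice had at most 163 and 137. Of 7 immediate early genes, 1 was called higher in PBS versus Ctrl (Atf3), beside 2.14% of all genes. Their summed levels were 37 to 76.4 FPKM in Ctrl, 23.9 to 190 over the 6 PBS mice, highest in PBS replicate 1, and 34.7 to 49.5 in FLX. Atf3 was at 11.9 and 10.8 FPKM in PBS replicates 1 and 4. The other PBS mice had 1.08 to 3.18 FPKM of it, and Ctrl mice 0.606 to 1.13. Of 7 tested neutrophil genes, 3 were called higher in PBS versus Ctrl and 1 lower in FLX versus PBS, beside 2.14% and 0.420% of all genes. Sums over the 8 listed neutrophil genes, with the untested Cxcr2, were 1.44 to 3.42 FPKM in Ctrl, 7.24 to 66 over the 6 PBS mice and 0.281 to 5.42 in FLX. The sum of 66 FPKM was again that of PBS replicate 6. Of 6 fat genes, 1 was called higher in PBS versus Ctrl, beside 2.14% of all genes. Their sums were 3.57 to 195 FPKM in Ctrl, 11.9 to 1190 over the 6 PBS mice and 26.5 to 1180 in FLX. The part of these lists in the changes of the clock genes was not tested.

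Per2 (ENSMUSG00000055866, chromosome 1, 91415982 to 91459324), a core repressor, was not called in any comparison by edgeR. It was at 1.59 ± 0.335 FPKM in Ctrl (SD, n = 6), 2.69 ± 0.787 in PBS (SD, n = 5) and 2.59 ± 1.03 in FLX (SD, n = 6). The 5 PBS mice had 2.39, 2.81, 1.83, 3.95 and 2.47 FPKM, against 1.16 to 2.01 in Ctrl and 1.73 to 4.56 in FLX. PBS versus Ctrl gave 0.78 (SE 0.23, adjusted p = 0.0719), with 4 of 5 PBS mice higher than all Ctrl mice. That difference was called by DESeq2 (0.0173), and by edgeR without Ctrl replicate 3 (0.0439), FLX replicate 5 (0.0256) or PBS replicate 3 (0.0397). FLX versus PBS gave -0.16 (SE 0.23, adjusted p = 0.88), and 0.04 without PBS replicate 4, and FLX versus Ctrl 0.62 (SE 0.22, adjusted p = 0.129). The exact two-sided permutation tests of Per2 alone gave unadjusted p of 0.00866 in PBS versus Ctrl and 0.013 in FLX versus Ctrl.

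Per3 (ENSMUSG00000028957, chromosome 4, 151003652 to 151044665), the PER gene that the clock needs least, went the other way. Ctrl mice ranged from 1.19 through a median of 1.62 to 2.64 FPKM and FLX mice from 0.637 through 0.719 to 0.874. The levels of the 5 PBS mice were 0.921, 1.42, 0.812, 2.23 and 1.74 FPKM. All FLX mice lay below all Ctrl mice, and 5 of 6 lay below all 5 PBS mice. Per3 fell from 1.67 ± 0.512 FPKM in Ctrl (SD, n = 6) to 0.734 ± 0.0819 in FLX (SD, n = 6), by 1.26 on the log2 scale (SE 0.22, adjusted p = 0.00606). From PBS, at 1.43 ± 0.586 FPKM (SD, n = 5), the fall was by 1.06 (SE 0.23, adjusted p = 0.0402), and PBS versus Ctrl gave -0.21 (SE 0.23, adjusted p = 0.703). In FLX versus PBS the call did not hold with all 6 PBS mice (-0.89, adjusted p = 0.152). PBS replicate 6 had 0.514 FPKM, less than any other mouse. The call was also lost without Ctrl replicate 1, 2, 5 or 6 (0.0502 to 0.0551), any 1 FLX mouse (0.0552 to 0.0954) or PBS replicate 2, 4 or 5 (0.0627 to 0.137), and limma did not make it (0.096 to 0.132 over 3 pseudocounts). Per3 lies wholly within the extent of Camta1 on the same strand, so the counting of their reads is uncertain. Camta1 was at 0.655 to 0.935 FPKM in Ctrl and 0.694 to 0.816 in FLX.

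Cry1 (ENSMUSG00000020038, chromosome 10, 85131700 to 85185064), which encodes the strongest repressor of the pair and is known to peak late in the cycle, was called in PBS versus Ctrl and FLX versus Ctrl. Ctrl mice ranged from 0.605 through a median of 0.778 to 1.26 FPKM, and the 5 PBS mice had 1.74, 2.06, 1.2, 1.75 and 1.62. FLX mice had 2.01 FPKM in the lowest, a median of 3.34 and 5.49 in the highest. All FLX mice were above all Ctrl mice, and 4 of 5 PBS mice were above all Ctrl mice. Cry1 rose from 0.84 ± 0.23 FPKM (SD, n = 6) to 1.67 ± 0.31 in PBS (SD, n = 5) (log2 fold change 1.0, SE 0.23, adjusted p = 0.0202) and to 3.47 ± 1.24 in FLX (SD, n = 6) (1.94, SE 0.23, adjusted p = 0.000256). FLX versus PBS gave 0.95 (SE 0.23, adjusted p = 0.0697), which was 1.01 (0.0432) with all 6 PBS mice. It was called by DESeq2 (0.00526) and limma (0.0377 to 0.0452 over 3 pseudocounts), and by edgeR without Ctrl replicate 3 (0.0439) or FLX replicate 1 (0.0477). The PBS versus Ctrl call was lost when Ctrl replicate 2 (0.0509) or PBS replicate 1 or 4 (0.0522 and 0.0517) was left out.

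Cry2 (ENSMUSG00000068742, chromosome 2, 92403646 to 92434043), the second cryptochrome, was not called in the same mice. It was at 2.03 ± 0.507 FPKM in Ctrl (SD, n = 6), 1.79 ± 0.517 in PBS (SD, n = 5) and 1.51 ± 0.438 in FLX (SD, n = 6). The log2 fold changes were -0.17 (SE 0.20, adjusted p = 0.713) in PBS versus Ctrl, -0.34 (0.20, 0.569) in FLX versus PBS and -0.52 (0.19, 0.132) in FLX versus Ctrl. The log2 ratio of Cry1 to Cry2 within a mouse had medians of -1.27 in Ctrl, -0.18 in PBS and 1.26 in FLX. It ran from -2.33 to -0.37 in Ctrl and from 0.85 to 1.32 in FLX, so that Cry2 was above Cry1 in every Ctrl mouse and below it in every FLX mouse. D930015M05Rik overlaps Cry2 on the opposite strand at 0.0553 to 0.484 FPKM, and whether the counting used strand was not given in the sources used here.

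Of the nuclear receptors, Nr1d1 (ENSMUSG00000020889, chromosome 11, 98767932 to 98775333), which encodes REV-ERBα, fell furthest of all members. Ctrl mice had 10.5 FPKM in the lowest, a median of 13.8 and 24 in the highest. The 5 PBS mice had 10.2, 7.27, 12.3, 10.8 and 8.03 FPKM, and FLX mice ranged from 2.1 through 3.13 to 5.37. All FLX mice lay below all other mice, and 3 of 5 PBS mice lay below all Ctrl mice. Nr1d1 was at 15 ± 5.14 FPKM in Ctrl (SD, n = 6), 9.73 ± 2.05 in PBS (SD, n = 5) and 3.33 ± 1.26 in FLX (SD, n = 6). It fell by 2.24 on the log2 scale in FLX versus Ctrl (SE 0.24, adjusted p = 0.000147) and by 1.63 in FLX versus PBS (SE 0.25, adjusted p = 0.00428). The value of PBS versus Ctrl was -0.61 (SE 0.24, adjusted p = 0.186). PBS replicate 6 had 33.3 FPKM, the highest of the 18 mice. With it, PBS versus Ctrl was -0.15 (adjusted p = 0.853) and FLX versus PBS -2.10 (adjusted p = 0.0107).

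Nr1d2 (ENSMUSG00000021775, chromosome 14, 18204054 to 18239127), which encodes the related receptor REV-ERBβ, was called in both comparisons that involve FLX. Ctrl mice ranged from 10.1 through a median of 11.1 to 18.9 FPKM and FLX mice from 2.57 through 5.61 to 6.74. PBS mice had 9.63, 11.2, 10.5, 17.5 and 11.8 FPKM, in the range of the Ctrl mice but for 1. Levels were 12.2 ± 3.36 in Ctrl (SD, n = 6), 12.1 ± 3.11 in PBS (SD, n = 5) and 5.11 ± 1.44 FPKM in FLX (SD, n = 6). Nr1d2 fell by 1.34 on the log2 scale in FLX versus PBS (SE 0.22, adjusted p = 0.00693) and by 1.32 in FLX versus Ctrl (SE 0.21, adjusted p = 0.00307). Against Ctrl the PBS value was 0.02 (SE 0.22, adjusted p = 0.974). PBS replicate 6, at 9.91 FPKM, lay with the other PBS mice in Nr1d2, unlike in Nr1d1.

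**Figure D3:**
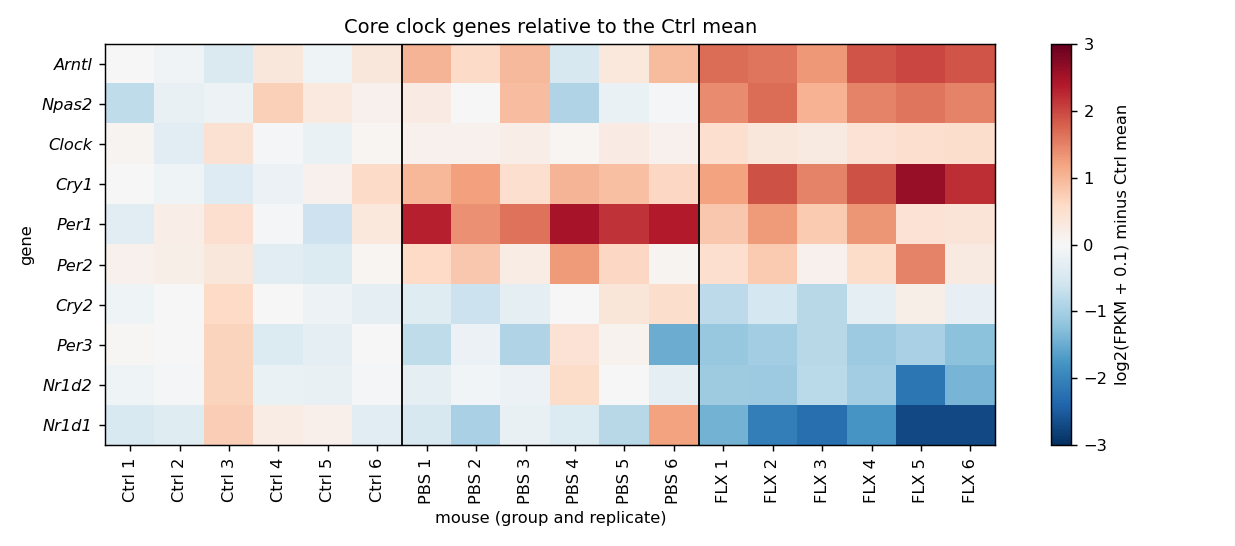
Log2(FPKM + 0.1) minus the mean of the 6 Ctrl mice (colour, red above and blue below) for the 10 members (rows) in each of the 18 mice (columns, by group and replicate). The 6 FLX mice are red in Arntl, Npas2 and Cry1 and blue in Per3, Nr1d2 and Nr1d1, and the 6 PBS mice are reddest in Per1.

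The relation of activators to repressors was read within single mice. The log2 ratio of Arntl to Nr1d1 ran from -5.20 to -3.30 in Ctrl (median -3.79) and from -4.13 to -2.36 over 5 PBS mice (median -2.69). In FLX it ran from -0.78 to 0.91 (median -0.18), so that Arntl stood level with a repressor that exceeded it many-fold in each Ctrl mouse. The ratio of Npas2 to Nr1d2 had medians of -3.81 in Ctrl, -3.72 in PBS and -1.03 in FLX, with every FLX mouse above every other. The ratio of Arntl to Per3 had medians of -0.76, -0.00 and 2.27, and its FLX range, 1.47 to 2.52, lay above the 5 PBS mice (up to 1.22) but not above PBS replicate 6 at 1.86. The ratio of Per1 to Per3 separated Ctrl (0.45 to 1.20) from both defeated groups, with 2.41 to 4.02 in the 5 PBS mice and 2.33 to 3.38 in FLX. The group differences behind these ratios are those tested above.

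Arntl was also compared with each of the other 9 members across the 17 mice after the group means were removed, so that only differences between mice of the same group counted. Of the 9 relations, 3 passed at an adjusted p under 0.05 in two-sided permutations within groups. Per3 ran against Arntl (Pearson's r = -0.83, permutation p = 0.00064, adjusted p = 0.00288; Spearman's rho = -0.75, p = 0.00676, adjusted 0.0304), and so did Nr1d2 (r = -0.72, permutation p = 7.00e-05, adjusted p = 0.00063; rho = -0.72, p = 0.00225, adjusted 0.0202). Npas2 ran with Arntl (r = 0.74, permutation p = 0.00647, adjusted p = 0.0194; rho = 0.68, p = 0.0132, adjusted 0.0397). Nr1d1, the textbook opponent of Arntl, had r = -0.18 (adjusted p = 0.555), and Clock, Per1, Per2, Cry1 and Cry2 had r between -0.32 and 0.24 and were not called. PBS replicates 4 and 1 lay farthest from the median of Arntl after its group means were removed. Without them, r was -0.74 for Per3 (adjusted p = 0.0241) and -0.65 for Nr1d2 (0.0241), but the rank correlations were no longer called (adjusted p = 0.132 for each). The rank correlation of Nr1d2 was also lost without PBS replicate 4 alone (0.0947), and that of Per3 without Ctrl replicate 3 (0.0503), FLX replicate 3 (0.101) or any 1 of the 5 PBS mice (0.0585 to 0.121). The relation of Npas2 no longer held without PBS replicates 4 and 1 (r = 0.61, adjusted p = 0.119), nor without PBS replicate 4 alone (0.58, adjusted p = 0.118), Ctrl replicate 4 (0.0576) or FLX replicate 3 (0.068). Its rank correlation was lost without Ctrl replicate 3 or 4 (0.0503 and 0.0723), FLX replicate 3 or 5 (0.109 and 0.0535) or any 1 PBS mouse (0.0979 to 0.193). Clock passed without Ctrl replicate 3 (r = 0.50, adjusted p = 0.0331).

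The 3 relations that passed were also read in each group of 6 mice, as a description with no test, since they were chosen in nearly the same mice. Arntl against Nr1d2 had r = -0.69 in Ctrl, -0.98 in PBS and -0.76 in FLX. Against Per3 it had -0.71, -0.87 and -0.61, and against Npas2 0.43, 0.85 and 0.71. Within PBS, replicate 4 had the lowest Arntl (0.62 FPKM) and Npas2 (0.409) of its group and the highest Per1 (16.4), Per2 (3.95), Per3 (2.23) and Nr1d2 (17.5). Among Ctrl mice, replicate 3 had the highest value of 7 of the 10 members, and the lowest of Arntl (0.652) and Cry1 (0.605). In FLX, replicate 5 had the highest Arntl (3.94), Cry1 (5.49), Per2 (4.56) and Cry2 (2.25) and the lowest Nr1d1 (2.1) and Nr1d2 (2.57).

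**Figure D4:**
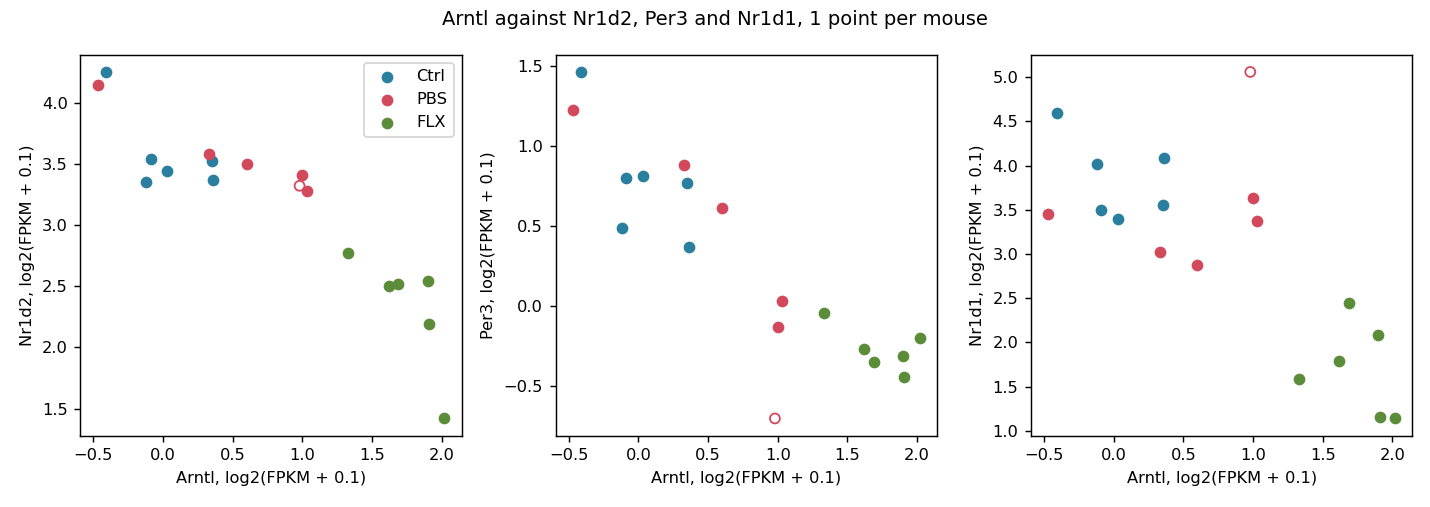
Arntl (x axes) against Nr1d2, Per3 and Nr1d1 (y axes), all as log2(FPKM + 0.1), with 1 point per mouse coloured by group and PBS replicate 6 as an open circle. Nr1d2 and Per3 go down as Arntl goes up within the groups (r = -0.72 and -0.83 after removing group means), while in Nr1d1 the open circle stands apart at 33.3 FPKM.

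A list of 23 further clock genes, also chosen with earlier results of these data known, held nuclear receptors, D-box factors, kinases, ubiquitin ligases and other regulators. Of these, 4 were called higher and 0 lower in PBS versus Ctrl. At an unadjusted p under 0.05, 8 were higher and 1 lower, and DESeq2 called 7 higher and 1 lower, to be read beside the shares over all genes given above for each rule. In FLX versus PBS, 1 was higher and 4 lower, and in FLX versus Ctrl 2 were higher and 5 lower. Their median log2 fold change was 0.18, -0.24 and 0.08 in the 3 comparisons. Dbp, a D-box activator, ranged from 9.39 to 22.1 FPKM in Ctrl and from 0.694 to 1.69 in FLX, with 4.16, 7.6, 3.23, 23 and 7.9 in the 5 PBS mice. All FLX mice lay below all others, and PBS replicate 4 again stood highest in its group. Dbp fell by 3.88 on the log2 scale in FLX versus Ctrl (SE 0.43, adjusted p = 0.000147) and by 3.12 in FLX versus PBS (SE 0.43, adjusted p = 0.00218). In PBS versus Ctrl Dbp was at -0.76 (adjusted p = 0.34), and -1.49 (0.0151) without PBS replicate 4.

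The other D-box factors moved less or the other way. Tef fell by 0.78 in FLX versus Ctrl (adjusted p = 0.0014) and by 0.61 in FLX versus PBS (0.019), the second being lost with all 6 PBS mice (0.109) and without PBS replicate 4 (0.07). Hlf fell by 0.39 in FLX versus Ctrl (adjusted p = 0.0404), a call lost with all 6 PBS mice (0.0807), without any 1 FLX mouse but replicate 2 (0.0578 to 0.0805) and without Ctrl replicate 1, 2, 5 or 6 (0.0568 to 0.0922). Nfil3, the repressor that competes for the same D-box, rose in both defeated groups. It was at 2.27 ± 1.07 FPKM in Ctrl (SD, n = 6), 7.57 ± 2 in PBS (SD, n = 5) and 12.7 ± 3.47 in FLX (SD, n = 6), with every defeated mouse above every Ctrl mouse. The log2 fold changes were 1.74 in PBS versus Ctrl (SE 0.26, adjusted p = 0.000965) and 2.40 in FLX versus Ctrl (SE 0.26, adjusted p = 0.000147). FLX versus PBS gave 0.66 (adjusted p = 0.311).

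Ciart, a repressor of the ARNTL pair, fell by 3.35 in FLX versus PBS (adjusted p = 0.000808) and by 2.09 in FLX versus Ctrl (adjusted p = 0.006). In PBS versus Ctrl it was at 1.26 (adjusted p = 0.0619), and was called without Ctrl replicate 3 (0.0324), FLX replicate 5 (0.0485) or PBS replicate 3 (0.0253).

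Usp2, a deubiquitinase gene with a daily rhythm in many tissues, had a pattern like that of Per1. It was at 12.2 ± 0.906 FPKM in Ctrl (SD, n = 6), 25.2 ± 1.94 in PBS (SD, n = 5) and 15.2 ± 1.7 in FLX (SD, n = 6). It rose by 1.06 in PBS versus Ctrl (SE 0.09, adjusted p = 8.59e-06), fell by 0.82 in FLX versus PBS (SE 0.09, adjusted p = 0.000808) and stood at 0.23 in FLX versus Ctrl (adjusted p = 0.15). PBS replicate 6, at 17.2 FPKM, was below the highest FLX mouse. Csnk1e, a kinase gene for PER proteins, rose by 0.51 in PBS versus Ctrl (adjusted p = 0.0287), and Wee1, a cell cycle kinase gene with an E-box, by 0.80 (adjusted p = 0.0331). The call of Csnk1e was lost without Ctrl replicate 1, 2, 5 or 6 (0.0523 to 0.0622) or PBS replicate 1, 4 or 5 (0.0574 to 0.101). That of Wee1 was lost without Ctrl replicate 1, 2, 4 or 5 (0.0611 to 0.0798) or PBS replicate 1, 4 or 5 (0.0545 to 0.115). Fbxl21, a ubiquitin ligase gene for CRY proteins, fell by 0.80 in FLX versus Ctrl (adjusted p = 0.0151), from 0.418 to 0.734 FPKM in Ctrl to 0.29 to 0.394 in FLX.

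**Figure D5:**
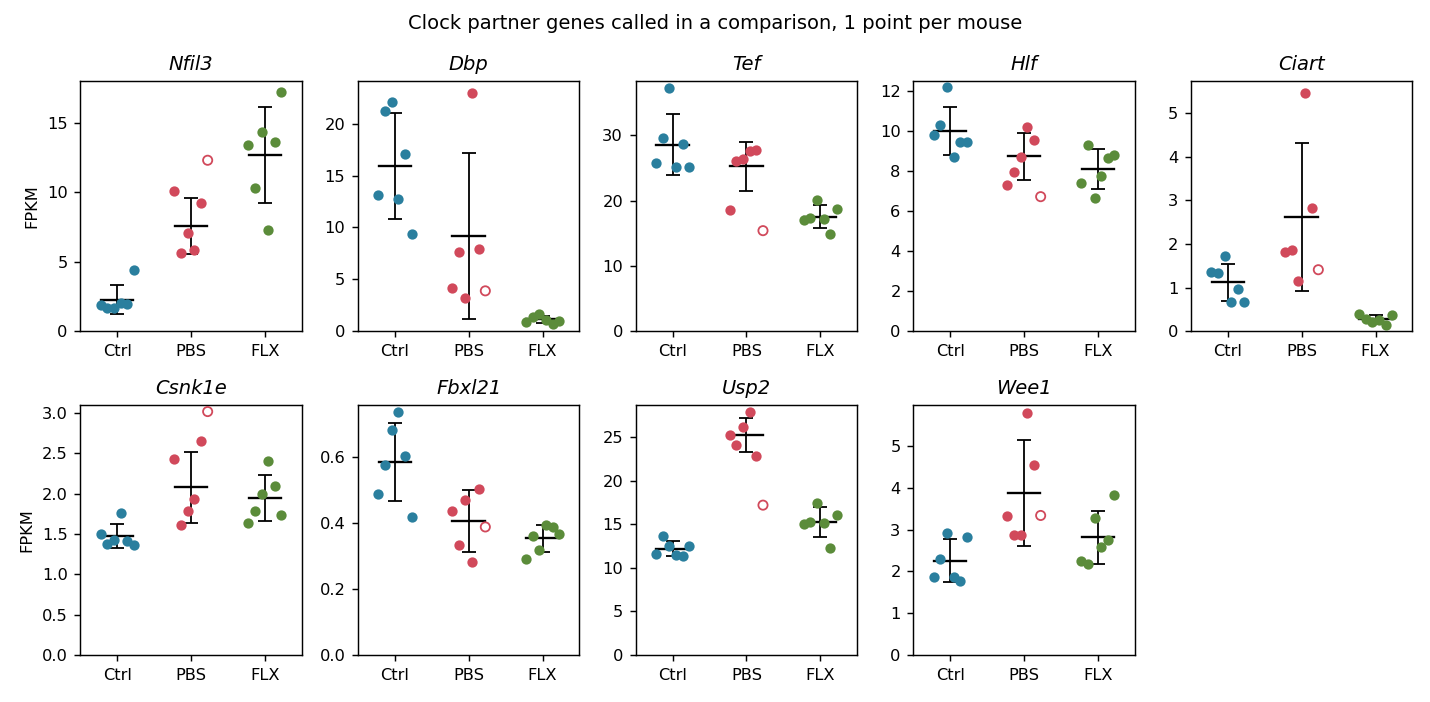
FPKM (y axes, from 0) of 9 listed clock genes outside the core set that were called in a comparison, in the Ctrl, PBS and FLX groups (x axes), with 1 point per mouse, the mean as a line, bars of 1 SD and PBS replicate 6 as an open circle outside the mean. Dbp reaches at most 1.69 FPKM in FLX against at least 9.39 in Ctrl, Nfil3 is higher in both defeated groups, and Usp2 is highest in PBS.

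Among 12071 genes with a mean of at least 1 FPKM, outside the core and listed clock genes, those with the profile most like that of Arntl over the 17 mice were Ypel2 (r = 0.915), Slc9a3r2 (0.908), Dhx30 (0.900), Gm53 (0.900) and Timm29 (0.898), by Pearson's r of log2(FPKM + 0.1) with the group means left in. Ypel2 had medians of 2.75, 3.44 and 6.58 FPKM in Ctrl, PBS and FLX. Most like Nr1d1 were Igfbp1 (r = 0.921), Gjb2 (0.855), Lmbr1l (0.848), Dusp9 (0.840) and Tbxas1 (0.823). Igfbp1, a binding protein gene for insulin-like growth factors, had medians of 10.6, 7.83 and 1.21 FPKM. These values carry the group differences that the mice share and are a description of likeness only.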

How the data were processed

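Poly(A) RNA from the right kidneys of 18 mice was sequenced in read pairs. The study's methods name fastp, HISAT-3N, GRCm38 and StringTie, while the submitters' processing notes name cutadapt 1.9, HISAT2 2.0.4, UMI-tools, StringTie 1.3.4d, DESeq2 and edgeR. The authors deposited for each of 32675 genes an FPKM value and a count per mouse. The deposited counts are whole numbers but were treated as estimated counts, since values of 4 were more frequent (median 720 genes in a mouse) than values of 3 (484.5) or 5 (268). The kit marks strand, but whether counting used it was not given in the sources used here.

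Groups were compared with edgeR 4.0.16 in R 4.3.3, in 1 model over 3 groups and 17 mice, with TMM scaling, filterByExpr, the quasi-likelihood test and Benjamini-Hochberg adjustment over 20251 genes. A call is an adjusted p under 0.05. All gene fold changes in the text come from this fit unless another is named. Single members were also tested by an exact permutation test (smallest p 0.00433 for 5 against 6 mice and 0.00216 for 6 against 6). Arntl was related to the other 9 members on log2(FPKM + 0.1) centred on group means, with 100000 permutations within groups. The alternatives were DESeq2 1.42.0, limma 3.58.1 with pseudocounts of 0.1, 1 and 0.01, other scalings, no filter, the study's threshold of a log2 fold change over 1 and an unadjusted p under 0.05, pairs of groups, the replicate block, all 6 PBS mice, FLX replicates 1 and 2 only, and 1 mouse left out at a time. The fit was tested on simulated data.

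The members and gene lists were chosen with earlier results of these data known. Named genes were all members, the listed clock genes with a call (1 is counted but not reported here), and the 5 genes most like Arntl and the 5 most like Nr1d1. Promoter windows are from RefSeq (GRCm38.p6), with bases in annotated exons of GENCODE vM21 cut from the printed runs. Mice of a group are separate animals. No 2 mice had identical counts.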

Additional observations from a re-analysis of the deposited data

Results flagged for a closer look

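In 40 groups of values (10 members in Ctrl, FLX and PBS with and without replicate 6), 7 held a highest mouse that stood far from the rest. The groups share mice, and the PBS mice enter them in both PBS sets, so no chance rate is set beside this count. Ctrl replicate 3 was such a mouse in Nr1d2 (18.9 FPKM, next 11.5), Cry2 (3.03, next 1.98) and Per3 (2.64, next 1.65). PBS replicate 4 was one in Nr1d2 (17.5 FPKM, next 11.8), in both PBS sets. PBS replicate 6 was one in Nr1d1 (33.3 FPKM, next 12.3), and FLX replicate 5 in Per2 (4.56 FPKM, next 2.76). In counts scaled to library size over the 17 mice, Nr1d2 and Cry2 in Ctrl replicate 3 and Nr1d2 in PBS replicate 4 still stood apart, while Per3 in Ctrl replicate 3 and Per2 in FLX replicate 5 did not reach the limit.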

How the results depend on the processing

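The core clock genes called numbered 2 in PBS versus Ctrl, 6 in FLX versus PBS and 7 in FLX versus Ctrl. Leaving out 1 mouse gave 1 to 3, 3 to 7 and 6 to 8, with 1 in PBS versus Ctrl without Ctrl replicate 2 or PBS replicate 1, and 3 in FLX versus PBS without FLX replicate 5 or 6 or PBS replicate 4. PBS versus Ctrl gave 1 with limma on log2(FPKM + 1) and 1 at the study's threshold. Over all 20251 genes these gave 351 higher and 383 lower, and 351 and 313. FLX versus PBS gave 3 with only the 2 groups compared, where 35 of all 19260 genes were called higher and 60 lower. With FLX replicates 1 and 2 only, 0 members were called in FLX versus PBS and 0 in FLX versus Ctrl by edgeR. That fit had fewer mice. Of all 21863 genes it called 0 higher and 0 lower in FLX versus PBS, and 4 and 0 in FLX versus Ctrl. The absence of calls is therefore no result about the clock genes. Arntl was still at 1.08 and 1.67 and Nr1d1 at -1.20 and -1.81 on the log2 scale. The further clock genes called numbered 4, 5 and 7. They gave 2 to 8, 3 to 5 and 5 to 9 with 1 mouse left out, with 2 in PBS versus Ctrl without Ctrl replicate 1, 2 or 5 or PBS replicate 1, 8 without Ctrl replicate 3, and 3 in FLX versus PBS without PBS replicate 4. PBS versus Ctrl gave 8 with DESeq2, 2 with limma on log2(FPKM + 1) and 2 with only the 2 groups compared. Over all genes these called 806 higher and 677 lower of 18309, 351 and 383 of 20251, and 287 and 209 of 19380. FLX versus PBS gave 3 with all 6 PBS mice, 2 at the study's threshold and 0 with FLX replicates 1 and 2 only, and FLX versus Ctrl gave 3 and 1 under the last 2. With all 6 PBS mice, 45 of 19946 genes were higher and 66 lower in FLX versus PBS. At the study's threshold, 199 of 20251 genes were higher and 185 lower in FLX versus PBS, and 246 and 208 in FLX versus Ctrl. Where not stated, the cause was not tested.

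Deviations of same-numbered mice from their group means correlated between -0.205 and 0.227 over the genes tested and exceeded 0.1 in 2 of 16 pairs. The labels do not say whether same-numbered mice shared a cage or a time of collection. A correlation over all genes cannot decide that for a few genes. With the replicate block, 2 members were called in FLX versus PBS (Nr1d1 and Nr1d2) and 4 further clock genes in FLX versus Ctrl. Of all 20251 genes, that fit called 21 higher and 46 lower in FLX versus PBS, and 153 and 105 in FLX versus Ctrl. The relations of Arntl that passed numbered 3, with 2 to 4 when 1 mouse was left out, and 6 when values were not centred on group means, a setting in which group differences enter.

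Of 30 member fold changes under 29 alternatives each, 451 values with 1 mouse left out and 314 under the others, of 870 in all, kept direction and side of the threshold. Changes of sign were all in values that were never called. Npas2 in PBS versus Ctrl was -0.07 without Ctrl replicate 1 and -0.24 without PBS replicate 3, with up to 0.25 without another mouse. Nr1d2 in PBS versus Ctrl was -0.03 with all 6 PBS mice and -0.03 with upper-quartile scaling, and -0.01, -0.02, -0.02 and -0.18 without Ctrl replicate 1, 4 or 5 or PBS replicate 4, with up to 0.17 without another mouse. Per2 in FLX versus PBS was 0.04 without PBS replicate 4 and down to -0.39 without another mouse, and Wee1 in FLX versus Ctrl -0.05 with FLX replicates 1 and 2 only. Per1 in PBS versus Ctrl was called under all 28 alternatives with an adjusted p, and Nr1d1 and Nr1d2 in FLX versus PBS under 27 of 28, the exception being FLX replicates 1 and 2 only. The balance of calls over all genes moved with scaling, from 433 higher and 339 lower in PBS versus Ctrl to 314 and 449 with upper-quartile scaling. With limma on log2(FPKM + 0.1) it moved from 62 and 85 to 192 and 63 in FLX versus PBS and from 422 and 322 to 979 and 235 in FLX versus Ctrl.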

Other observations

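Bhlhe40, a clock repressor gene on the list of further clock genes that was not called, fell into separate levels in the PBS group. This feature was singled out after its values were seen. PBS replicates 1 and 4 had 66.5 and 60.7 FPKM, and the other 4 PBS mice had 14.9, 12.6, 18.1 and 14.8, close to the Ctrl mice at 11.9 to 20 and the FLX mice at 16.8 to 24. PBS replicates 1 and 4 were also the highest in Atf3. Rora, a receptor gene on the same list, was at 0.257 FPKM in Ctrl replicate 6 and at 1.76 or more in each of the other 17 mice. These were also noticed after the values were seen, and no cause was tested.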
